A study of Mus musculus with 10 samples.

Results

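The genes described here are the 12084 of 19333 in 1 deposited comparison table that reached a mean of 50 or more normalized counts, the level chosen so that low counts do not dominate. The table compares RNA from 3 cultures of oligodendrocyte precursor cells (OPCs) that lack Apc with 3 wild-type cultures. OPCs divide, migrate and mature into the oligodendrocytes that wrap axons in myelin, and the comparison asks what loss of Apc does to their transcripts. Apc is a scaffold of the cytoplasmic complex that marks beta-catenin for destruction. Without that complex beta-catenin accumulates, enters the nucleus and, with TCF and LEF factors, turns on Wnt target genes, many of which encode inhibitors that feed back on the pathway. In the oligodendrocyte lineage, high Wnt signalling is known to hold precursors back from maturing.

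Both groups carry floxed Apc alleles. The Apc-deleted cultures have the genotype Olig2-Cre:Apc-fl/fl, in which the Olig2 promoter drives Cre recombinase in the oligodendrocyte lineage and in other cells that pass through an Olig2-expressing stage. The cultures called wild type have the genotype Apc-fl/fl and come from littermates without Cre. Cells were purified by immunopanning on antibody-coated dishes and grown with the mitogen PDGFAA for 3 days. The labels give no age, sex or number of animals and do not say that the 3 libraries of a genotype came from separate animals, so the p-values cover only the spread among these cultures, and that spread could be technical. Xist, made from the inactive X chromosome, stood at 0.66 (SE 0.21, adjusted p = 0.175) in the authors' deposited table, and the 5 measured genes placed on chromosome Y had a median of -0.39 with 0 calls and 1 at an unadjusted p under 0.05 by the authors' test. Their values ran from -0.45 for Eif2s3y to 0.26 for Erdr1 in the authors' deposited table. The part of the cultures' sex composition in the results was not tested. The effect of Cre itself cannot be told apart from the effect of losing Apc.

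The authors' deposited table holds, for each gene, a mean over the 6 libraries, then a log2 fold change and its standard error (SE), a p-value, raw and adjusted, but no value for any single library. Values per culture and the overlap between the genotypes are therefore not shown, and the depth of each library is unknown. Group means given below are implied by the authors' mean and fold for 2 groups of equal size and carry no spread of their own. The numerator of the fold is not named, so the sign was set to make Notum, Sp5, Lef1 and Axin2 higher in Apc-deleted cultures, and the direction of those 4 genes is no finding. Genes just outside the limit of 50 were Metrnl at a mean of 49.97, Svep1 at 49.92 and Dnd1 at 49.91 in the authors' deposited table, and those just inside were P2ry6 at 50.02 and Gm44643 at 50.11.

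The label was checked against marker genes by the mean of normalized counts per kilobase of exon, computed from the authors' deposited table. Lineage markers were present, with Olig1 at 5247 per kilobase, Ptprz1 at 916, Olig2 at 909 and Sox10 at 683. Pdgfra, the PDGFAA receptor, stood at 225 and Cspg4 at 87.6. Some neuronal transcripts stood far above these, with Tubb3 at 65447 per kilobase, Gap43 at 40388, Stmn3 at 27869 and Nefl at 18186. Gap43 is also listed here as a Schwann and neural crest marker. Other neuron markers were lower, with Snap25 at 1195, Slc17a6 at 440, Gad2 at 126 and Gad1 at 75.8. The water channel Aqp4 and the intermediate filament Gfap, both astrocyte markers, stood at 786 and 742 per kilobase, and Cldn5, of endothelial tight junctions, at 822. Transcripts of other cell types were thus abundant in cultures labelled OPC, and the values are called OPC values after the labels only. In such bulk RNA, fewer cells of a type and less RNA per cell cannot be told apart.

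Most transcripts differed little between the genotypes. The authors' deposited table puts 60 genes that rose (0.497% of the 12084) and 30 that fell (0.248%), 0.745% together, past an adjusted p under 0.05. Over the whole table the share was 0.548%, and among the 7249 genes below the limit it was 0.221%. The median log2 fold change over all 12084 genes was 0.00, with quartiles of -0.08 and 0.11, and 50.4% of them pointed higher. An unadjusted p under 0.05 was held by 556 genes (4.60%) in the authors' deposited table, 390 of them pointing higher. For 9049 genes (74.9%) the 95% interval, built from the SE by the normal approximation, lay within 1.5-fold either way. These genes are called bounded below, which states the precision of the estimate and not that the genotypes are equal.

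**Figure D1:**
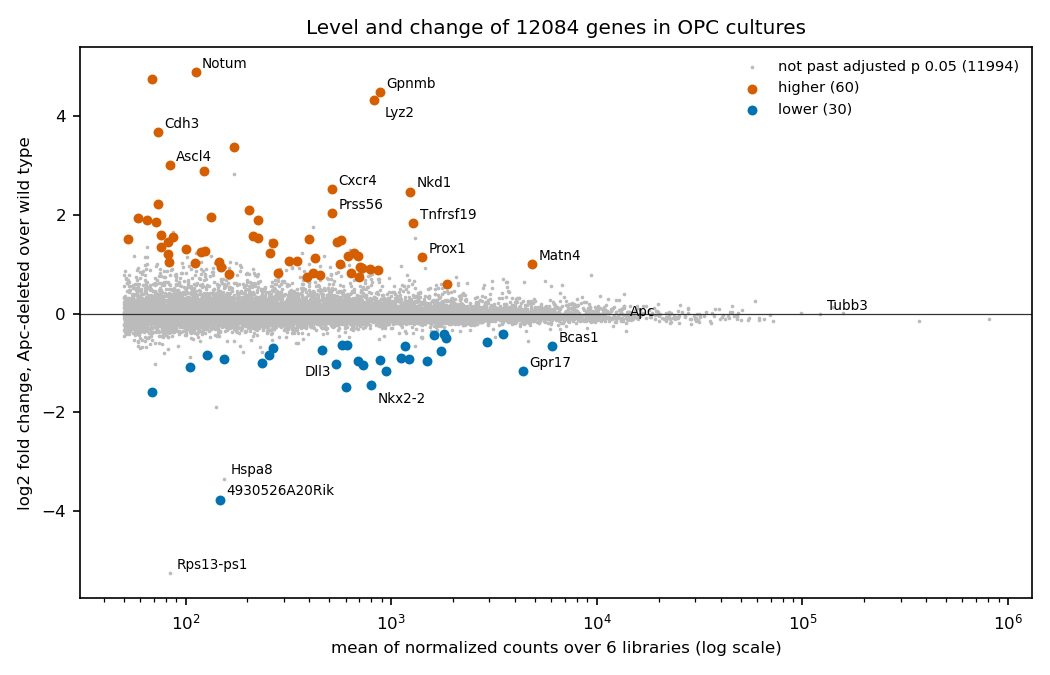
Each point is 1 of 12084 genes, plotted by its mean of normalized counts over 6 libraries (log scale) and its log2 fold change, Apc-deleted over wild type. The 60 genes that rose (orange) reach further from 0 than the 30 that fell (blue), and the uncalled Rps13-ps1 and Hspa8 lie lower than nearly all genes that fell.

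The genes that rose and those that fell differed in size of change and in level. Of the 60 that rose, 47 changed at least 2-fold and the median log2 fold change was 1.34, against 9 of 30 and -0.90 for those that fell, in the authors' deposited table. The median SE was 0.28 among those that rose and 0.17 among those that fell. Low levels were more common among the increases, where 14 of 60 had a mean under 100 normalized counts, than among the decreases, with 1 of 30. The limit of 50 is on the mean of both genotypes, and 16 of the 60, such as Notum and Cdh3, reached it through the Apc-deleted group alone, while 2 of the 30 reached it through wild type alone. Such genes had to differ to be included, so the counts are a description. When the genes were split into 5 equal bins by mean level, from lowest to highest, 21, 11, 15, 11 and 2 rose and 3, 5, 5, 9 and 8 fell. The calls rest on a normal distribution for the authors' statistic. With a t distribution of 4 degrees of freedom, as 6 libraries in 2 groups would leave, 0 genes passed in either direction after adjustment. At an unadjusted p under 0.05 by that distribution, 135 were higher and 59 lower. The smallest adjusted p was then 0.999994, so even Notum, with the smallest deposited p, could not pass. This setting therefore does not judge single calls, and the fitting degrees of freedom are unknown because the comparison test is not given.

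**Figure D2:**
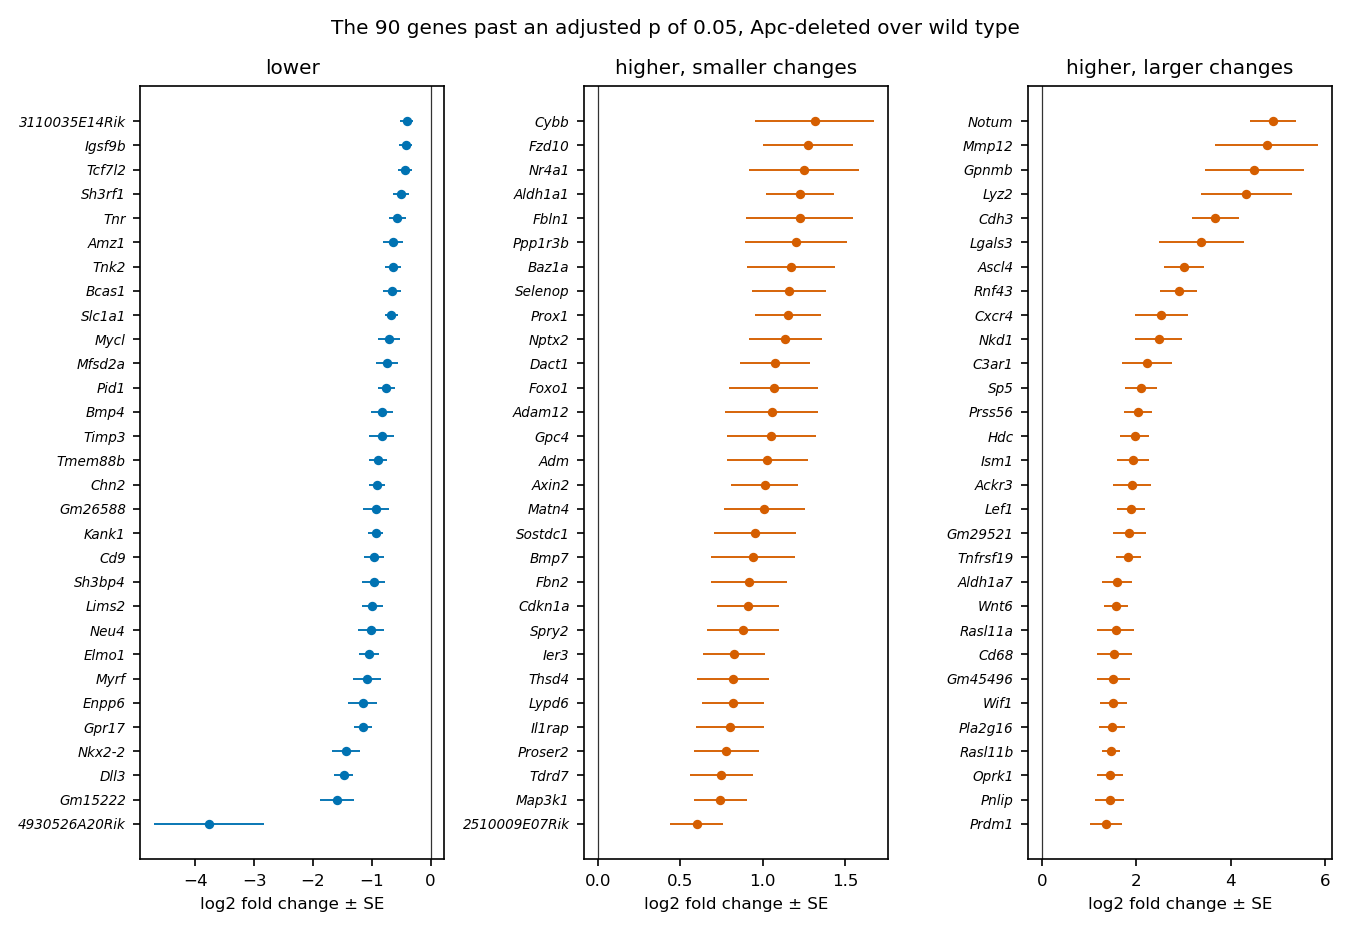
All 90 genes past an adjusted p of 0.05, with the log2 fold change (Apc-deleted over wild type) and a bar of 1 SE either way; the axes of the 3 panels differ. Notum is the largest increase at 4.90, while most genes that fell lie between -0.41 and -1.59 with short bars.

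Apc itself did not pass the test. Its log2 fold change was -0.14 (SE 0.13) at a mean of 13477 normalized counts in the authors' deposited table, with a 95% interval from -0.39 to 0.12 and an adjusted p of 1. A sum over the whole gene does not isolate the floxed exons, so this value checks neither the deletion nor the labels.

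A list of 37 Wnt feedback inhibitors and targets held 27 measured genes. Of these, 8 rose, 0 fell and 22 pointed higher, with a median of 0.65. Over all 12084 genes 0.497% rose and 50.4% pointed higher, and the median was 0.00. Like all lists here, this one was chosen with earlier results of these data known. Without the 4 genes that set the sign, 4 of 23 rose, 18 pointed higher and the median was 0.24, and without the limit of 50 it was 0.24 for all 35 in the table. Rnf43, a ubiquitin ligase that removes Frizzled receptors from the cell surface, rose by 2.89 (SE 0.39, adjusted p = 3.48e-10) in the authors' deposited table. Nkd1, which binds Dishevelled, went from an implied 377 to 2091 normalized counts (2.47, SE 0.50, adjusted p = 0.000367), and the secreted Wnt-binding protein Wif1 rose by 1.51 (SE 0.29) in the authors' deposited table. Tnfrsf19, a receptor of the tumour necrosis factor family also called Troy, went from an implied 563 to 2002 (1.83, SE 0.27, adjusted p = 2.4e-08) in the authors' deposited table. Other known targets had positive values that did not pass, among them Lgr5 at 0.92 (SE 0.31, adjusted p = 0.285), Znrf3 at 0.65 (SE 0.26) and Ccnd1 at 0.96 (SE 0.57) in the authors' deposited table.

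Some genes outside that list that are known to modulate Wnt signalling also rose, and they were gathered here after their values were seen. Dact1, a Dishevelled-binding protein, rose by 1.07 (SE 0.21, adjusted p = 0.000298), and Sostdc1, a secreted antagonist of BMP and Wnt ligands, by 0.95 (SE 0.25, adjusted p = 0.0268) in the authors' deposited table. Lypd6, a GPI-anchored surface protein, rose by 0.82 (SE 0.19, adjusted p = 0.00434), and Gpc4, a heparan sulfate proteoglycan, by 1.05 (SE 0.27, adjusted p = 0.0191) in the authors' deposited table.

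Few genes of the core machinery passed. Of 18 genes for the destruction complex and Dishevelled proteins, Axin2 rose and 15 were bounded, with a median of -0.02. Gsk3b, the kinase that phosphorylates beta-catenin, was at -0.09 (SE 0.11), Ctnnb1, which encodes beta-catenin, at -0.17 (SE 0.12) and Axin1 at 0.09 (SE 0.17) in the authors' deposited table, none of which passed. The receptor list of 14 measured genes held receptors, co-receptors and the secreted R-spondins Rspo2 and Rspo3. Among them, Fzd10 rose by 1.27 (SE 0.27, adjusted p = 0.00124) in the authors' deposited table. Of these 14, 7 were bounded and 3 had an unadjusted p under 0.05 by the authors' test. Among 9 measured genes of ligands and their secretion, Wnt6 rose from an implied 107 to 318 normalized counts (1.57, SE 0.25, adjusted p = 4.26e-07), while 6 of the other 8 pointed lower, such as Wnt7b at -0.17 (SE 0.14) in the authors' deposited table. Of these 9 genes 5 were bounded. Of the DNA-binding partners of beta-catenin, Lef1 helped to set the sign, so its direction is no finding. Tcf7l2, a factor also known for its part in oligodendrocyte maturation, fell by 0.43 (SE 0.12, adjusted p = 0.0499) in the authors' deposited table. Tcf7 stood at 0.31 (SE 0.27) there and did not pass.

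Promoters were searched for the core of the TCF/LEF motif, written CTTTGAT or CTTTGAA, on both strands of the 250 bases before each RefSeq start (GRCm38.p6). Either form was present before 7.48% of 32851 starts of all genes and 5.12% of 11872 starts of the genes described here. Among genes that rose, 46 of 60 matched the promoter table, and 6 of their 62 starts (9.68%) held a match, those of Sp5, Hdc, Tnfrsf19, Prss56, Ascl4 and Aldh1a1. Among genes that fell, 22 of 30 matched the table and 0 of 27 starts held one. The 3 promoters with CTTTGAT are shown, and those with CTTTGAA alone are not. The match is in capitals, read 5′ to 3′ on the strand of the gene, where ATCAAAG is the match on the other strand. They are Sp5 (chr2:70474673-70474922, plus strand), Hdc (chr2:126618679-126618928, minus strand) and Tnfrsf19 (chr14:61037988-61038237, minus strand).
Sp5: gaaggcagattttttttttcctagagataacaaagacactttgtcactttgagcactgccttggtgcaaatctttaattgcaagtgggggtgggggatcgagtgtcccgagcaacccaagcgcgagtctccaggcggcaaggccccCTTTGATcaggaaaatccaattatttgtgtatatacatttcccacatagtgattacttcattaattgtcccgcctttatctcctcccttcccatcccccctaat
Hdc: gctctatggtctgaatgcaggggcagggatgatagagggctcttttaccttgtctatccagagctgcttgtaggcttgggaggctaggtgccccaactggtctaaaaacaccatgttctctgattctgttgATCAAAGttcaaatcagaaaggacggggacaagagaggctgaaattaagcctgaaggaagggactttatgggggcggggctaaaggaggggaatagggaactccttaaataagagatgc
Tnfrsf19: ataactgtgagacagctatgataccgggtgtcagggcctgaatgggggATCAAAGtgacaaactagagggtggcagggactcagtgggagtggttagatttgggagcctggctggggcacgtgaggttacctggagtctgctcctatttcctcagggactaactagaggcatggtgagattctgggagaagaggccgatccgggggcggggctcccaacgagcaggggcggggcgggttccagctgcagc
The match in Sp5 began 104 bases before the start, that in Hdc 119 and that in Tnfrsf19 202. A match is a description of letters, not of a bound site, and its absence from these windows says nothing of more distant elements.

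Transcription factors rose in several families. Ascl4, a basic helix-loop-helix factor of the Achaete-scute family (chromosome 10, 85927681 to 85946206), went from an implied 18.6 to 149 normalized counts (3.01, SE 0.42, adjusted p = 3.63e-09) in the authors' deposited table. Prox1, a homeobox factor (chromosome 1, 190118035 to 190170714), was far more abundant and went from an implied 877 to 1951 (1.15, SE 0.20, adjusted p = 7.86e-06) in the authors' deposited table. The repressor Prdm1 rose by 1.36 (SE 0.34), the forkhead factor Foxo1 by 1.07 (SE 0.27) and the orphan nuclear receptor Nr4a1 by 1.25 (SE 0.33) in the authors' deposited table. Baz1a, a subunit of chromatin remodelling complexes, rose by 1.17 (SE 0.26, adjusted p = 0.00325) in the authors' deposited table. Few other members of such families passed. Of 29 measured Irx, Pax, Zic, Dlx, Lhx, Pou and Nkx genes 0 rose and 1, Nkx2-2, fell, and of 270 zinc finger genes named Zfp 0 passed, with 6 at an unadjusted p under 0.05 by the authors' test.

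**Figure D3:**
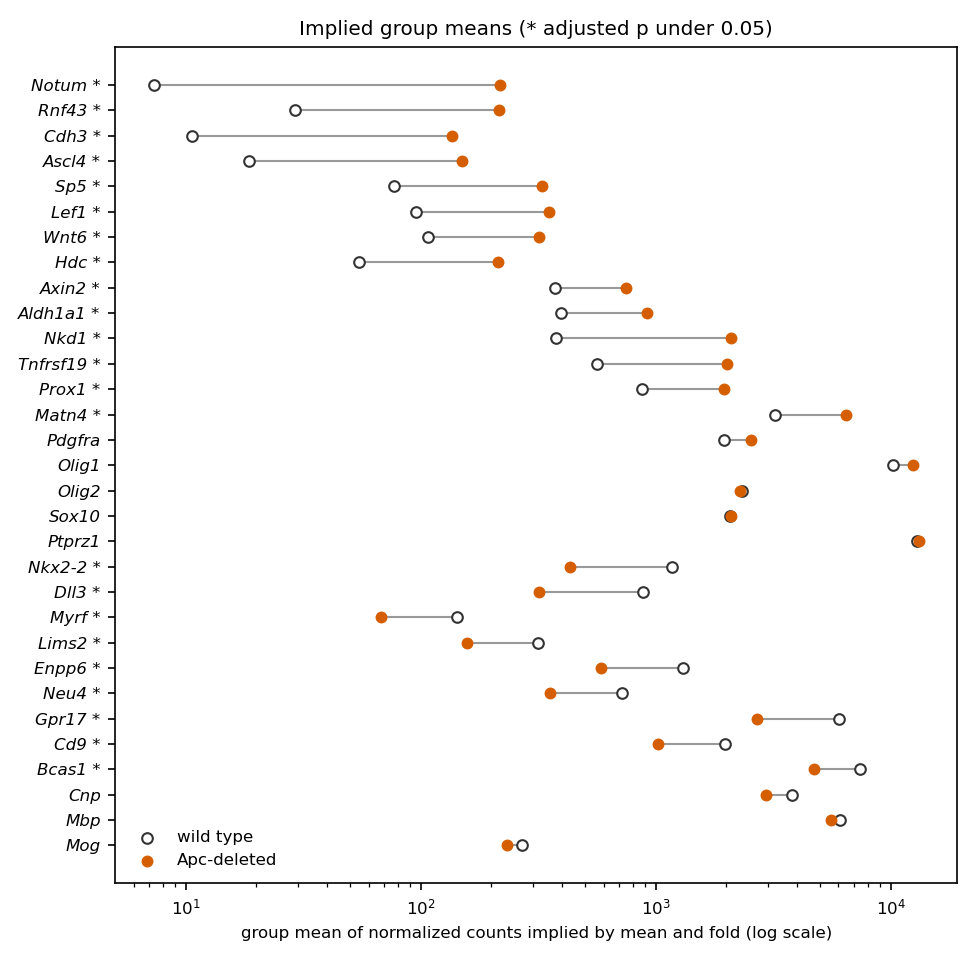
Group means of normalized counts (log scale) implied by the authors' mean and fold for 31 genes, wild type as open circles and Apc-deleted as filled ones; an asterisk marks an adjusted p under 0.05 and no spread is available. The genes from Notum to Matn4 shift right, Pdgfra to Ptprz1 shift less, those from Nkx2-2 to Bcas1 shift left, and the myelin genes at the bottom shift little.

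Genes of committed, premyelinating oligodendrocytes, the stage between a dividing precursor and a myelinating cell, were lower. Of 27 measured genes of a 29-gene list, 11 fell, 0 rose and 1 pointed higher, with a median of -0.39. Over all 12084 genes 0.248% fell and 50.4% pointed higher. The summed implied level of the list went from 63730 to 47076 normalized counts. Gpr17, an orphan receptor that marks this stage (chromosome 18, 31942997 to 31949636), went from an implied 6042 to 2713 (-1.16, SE 0.15, adjusted p = 2.14e-10) in the authors' deposited table. Nkx2-2, a homeobox factor of the lineage (chromosome 2, 147177546 to 147194243), went from an implied 1171 to 433 (-1.44, SE 0.24, adjusted p = 1.16e-06) in the authors' deposited table. Myrf, the factor that switches on myelin genes, fell by 1.08 (SE 0.24) and Enpp6, a choline phosphodiesterase that marks new oligodendrocytes, by 1.15 (SE 0.25) in the authors' deposited table. Bcas1, a marker of early myelinating cells, went from an implied 7425 to 4732, the sialidase Neu4 fell by 1.01 (SE 0.22), and the tetraspanin Cd9 went from an implied 1980 to 1021 in the authors' deposited table. Lims2, an adaptor of integrin adhesions whose gene contains Gpr17, Mycl, a relative of Myc, and Bmp4, a ligand made at this stage, fell by 0.99 (SE 0.18), 0.71 (SE 0.18) and 0.83 (SE 0.18) in the authors' deposited table. Lims2 and Gpr17 overlap and could share reads, so their calls may not be separate. Among the 16 that were not called, Fyn, a kinase of early differentiation, stood at -0.31 (SE 0.12) and Rap2a, the most abundant of the list, at -0.16 (SE 0.10), neither past the test in the authors' deposited table.

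Genes of myelin structure and maturation also mostly pointed lower, with 1 call. Of 34 measured genes 27 pointed lower, 1 fell and 0 rose, with a median of -0.11. At an unadjusted p under 0.05 the list held 7 by the authors' test, and 21 of 34 were bounded. The gene that fell was Tmem88b, from an implied 1452 to 780.5 (-0.90, SE 0.15, adjusted p = 1.28e-06) in the authors' deposited table. Mbp stood at -0.12 (SE 0.12) and Mog at -0.21 (SE 0.19) in the authors' deposited table, neither of which passed. Mbp and Mog encode proteins of compact myelin and of its surface. Fa2h, which hydroxylates myelin lipids, stood at -0.85 (SE 0.24, adjusted p = 0.0669) and Cnp at -0.38 (SE 0.13, adjusted p = 0.338), neither past the test in the authors' deposited table. The difference between the committed-stage and myelin lists was not tested.

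OPC identity genes were split. Of 30 measured genes, 1 rose, 4 fell and 16 were bounded, with a median of -0.06. Matn4, a matrix protein, went from an implied 3210 to 6462 normalized counts (1.01, SE 0.24, adjusted p = 0.0102) in the authors' deposited table. The 4 that fell were Gpr17, Nkx2-2 and Neu4, which also stand in the committed list, and Tnr, the matrix protein tenascin-R, by 0.57 (SE 0.14, adjusted p = 0.0172) in the authors' deposited table. None of 5 other factors of the lineage passed, with Sox10 at 0.00 (SE 0.20), Olig2 at -0.03 (SE 0.25), Olig1 at 0.29 (SE 0.24), Sox8 at -0.47 (SE 0.17) and Sox11 at 0.36 (SE 0.13) in the authors' deposited table.

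Among signalling pathways other than Wnt, single genes passed the test and few others of each pathway did. Dll3, a Notch ligand that acts within the cell that makes it (chromosome 7, 28293553 to 28302238), went from an implied 886 to 318 normalized counts (-1.48, SE 0.16, adjusted p = 2.66e-15) in the authors' deposited table. It had the smallest p of all genes that fell. The other 27 measured Notch genes held 0 that passed, and at an unadjusted p under 0.05 by the authors' test the whole list of 28 held 1, Dll3 itself. Hes5, a Notch target, was at -0.47 with a wide SE of 0.46 in the authors' deposited table. In the BMP and TGF-beta list, Bmp4 fell and Bmp7 went from an implied 481 to 925 (0.94, SE 0.25, adjusted p = 0.0421), while 33 of 41 genes were bounded and the median was 0.00 in the authors' deposited table.

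Feedback genes of the ERK kinase pathway, which PDGFAA activates through Pdgfra, mostly pointed higher. Of 22 measured genes 20 pointed higher and 2 rose, with a median of 0.28. Spry2, an inhibitor of receptor tyrosine kinase signalling, rose by 0.88 (SE 0.22, adjusted p = 0.0154) and the immediate early gene Ier3 by 0.82 (SE 0.19, adjusted p = 0.00432) in the authors' deposited table. Spry1 at 1.14 (SE 0.36), Dusp6, a phosphatase of ERK, at 1.29 (SE 0.49), Phlda1 at 1.53 (SE 0.47) and Etv5 at 0.52 (SE 0.17) missed the threshold of the authors' deposited table. The receptor tyrosine kinases themselves held 0 calls among 23 measured genes, with 2 at an unadjusted p under 0.05 by the authors' test, and a median of -0.05. Map3k1, an upstream kinase of stress pathways, rose by 0.74 (SE 0.16, adjusted p = 0.0019), as did 2 small GTPases of the Ras-like family, Rasl11b by 1.46 (SE 0.20, adjusted p = 4.26e-10) and Rasl11a by 1.56 (SE 0.39) in the authors' deposited table.

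Cdkn1a, which encodes the cell cycle inhibitor p21 and is a target of p53, went from an implied 550 to 1034 normalized counts (0.91, SE 0.19, adjusted p = 0.000589) in the authors' deposited table. In the list of p53 targets, which also holds the related genes Trp53 and Cdkn2a, Cdkn1a was the 1 call among 19 measured genes. Of these 19, 17 pointed higher, with a median of 0.23. Eda2r at 0.91 (SE 0.26, adjusted p = 0.0671), Psrc1 at 0.99 (SE 0.28, adjusted p = 0.0714) and Cdkn2a, a marker of cell cycle arrest, at 1.33 (SE 0.41, adjusted p = 0.154) missed the threshold of the authors' deposited table.

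Genes of cell division pointed higher, with wide SEs, and none was called. In the list of S phase and DNA replication 34 of 36 genes pointed higher, with a median of 0.62, and in that of G2 and mitosis 35 of 35, with a median of 0.54. None of either list passed by the authors' test, with 10 and 2 at an unadjusted p under 0.05. Lig1, a DNA ligase of replication, stood at 0.57 (SE 0.20, adjusted p = 0.404) and Top2a, which untangles chromosomes, at 0.66 (SE 0.49) in the authors' deposited table. The SE of each gene was divided by the median SE of the 200 genes nearest in mean, and this ratio was 5.86 for Birc5, 5.77 for Pclaf, 5.70 for Ska1, 5.66 for Cdca8, 5.44 for Plk1 and 5.39 for Cdk1. It reached 2 or more for 36 of the 71 genes of both lists together, against 203 (1.68%) of all 12084. Mitotic genes move together with the share of dividing cells, so the 35 are not separate observations.

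**Figure D4:**
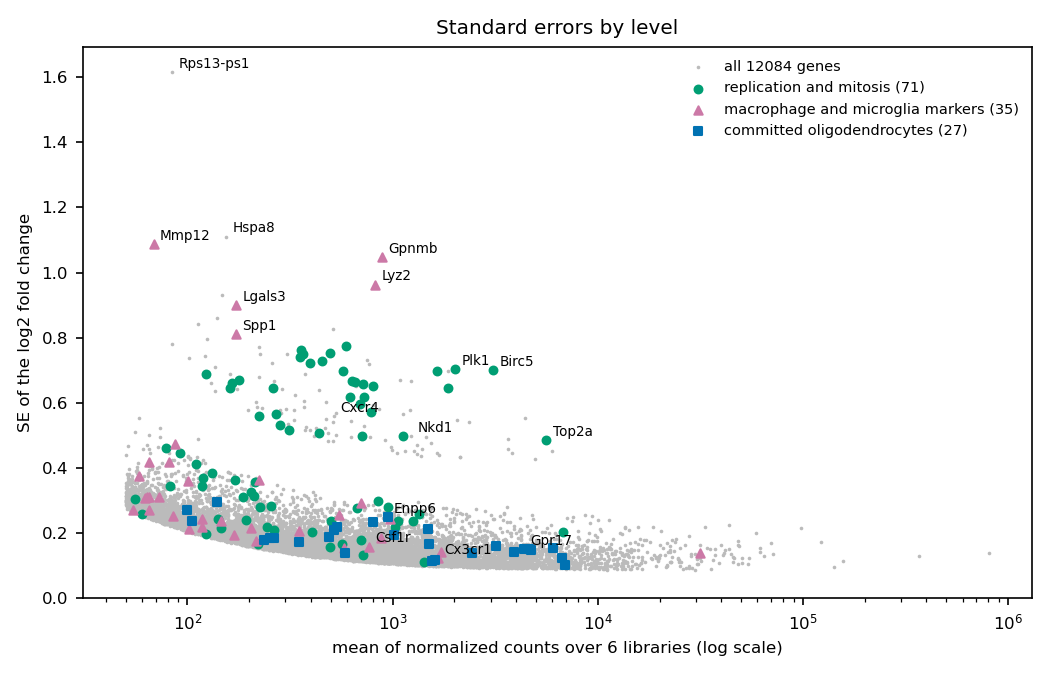
SE of the log2 fold change in the authors' deposited table against the mean level in normalized counts (log scale) for 12084 genes. Many replication and mitosis genes (green) and several macrophage markers (pink triangles) lie far above the grey band of genes of similar level, while genes of committed oligodendrocytes (blue squares) lie in or near it.

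Wide SEs also marked part of the increases. Of the 203 genes with a ratio of 2 or more, 189 pointed higher and 11 were called, which is 12.2% of the 90 calls. Of these 11, 10 rose, among them Gpnmb with a ratio of 7.90, Lyz2 with 7.12, Cxcr4 with 3.87 and Nkd1 with 3.83, and 1 fell, the uncharacterized transcript 4930526A20Rik (-3.77, SE 0.93, ratio 4.60) in the authors' deposited table. Some of the largest folds had wide SEs and did not pass. Hspa8, a constitutive chaperone, stood at -3.34 (SE 1.11, ratio 5.46), Rps2 at -1.88 (SE 0.86) and Rps13-ps1, a ribosomal protein pseudogene, at -5.26 (SE 1.62, ratio 6.44) in the authors' deposited table. On the higher side, Spp1 stood at 2.83 (SE 0.81, ratio 4.18), Kctd12 at 1.76 (SE 0.50, ratio 3.25, adjusted p = 0.0715), Moxd1 at 1.49 (SE 0.72, ratio 4.20) and the homeobox factor Otx2 at 1.35 (SE 0.50, ratio 1.83) in the authors' deposited table. Hspa8, Rps2 and Rps13-ps1 have near-identical copies in the genome that could share reads, so their values are uncertain. Which culture or cultures carry the spread was not tested.

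Markers of macrophages and monocytes, cells that an OPC culture should lack, were present and mostly pointed higher. All 33 listed genes were in the table and 22 reached the limit. Of these, 6 rose (Lyz2, Mmp12, Gpnmb, Cd68, Lgals3 and Cybb), 0 fell and 21 pointed higher, with a median of 0.77. Over all 12084 genes 0.497% rose and 50.4% pointed higher. Without the limit, 31 of 33 pointed higher and the median was 1.29. The summed implied level of all 33 went from 4986 to 10660 normalized counts. Lyz2, a lysozyme of myeloid cells, went from an implied 78.1 to 1568 (adjusted p = 0.00243), and Gpnmb, a glycoprotein of lipid-laden phagocytes, from 75.3 to 1694 (adjusted p = 0.0056) in the authors' deposited table. At an unadjusted p under 0.05 by the authors' test the list held 14 of 22, all pointing higher. Broad myeloid genes of the list differed in value. Tyrobp, an adaptor of activating receptors, stood at 1.65 (SE 0.48, adjusted p = 0.0845), Fcer1g, a subunit of Fc receptors, at 1.49 (SE 0.42, adjusted p = 0.0622) and the secreted Spp1 at 2.83 (SE 0.81, adjusted p = 0.083) in the authors' deposited table, none past the threshold. Values near 0 were those of Csf1r, the receptor for their survival factor, at 0.01 (SE 0.16), Ptprc, the pan-leukocyte antigen CD45, at 0.12 (SE 0.25) and Itgam, which encodes CD11b, at 0.12 (SE 0.18) in the authors' deposited table. Of 14 measured microglia markers 0 passed, with 5 at an unadjusted p under 0.05 by the authors' test, all 5 pointing higher. Tmem119, a marker specific to microglia, stood at 0.87 (SE 0.31, adjusted p = 0.393), Sall1 at 0.85 (SE 0.26, adjusted p = 0.127) and Cx3cr1 at 0.07 (SE 0.12) in the authors' deposited table. Genes outside the list that such cells are also known to express rose too, among them the complement receptor C3ar1 by 2.23 (SE 0.52) and the chemokine receptor Cxcr4 by 2.53 (SE 0.56) in the authors' deposited table. Both were picked after their values were seen. Of 9 measured complement genes 1 was called, and of 9 chemokines and receptors 2, with medians of 0.17 and -0.02. The part of myeloid cells in the increases of C3ar1, Cxcr4 and other genes was not tested. Just under the limit of 50, the scavenger receptor Cd36 and the leukocyte surface gene Cd84 also passed, at means of 46.2 and 44.6.

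**Figure D5:**
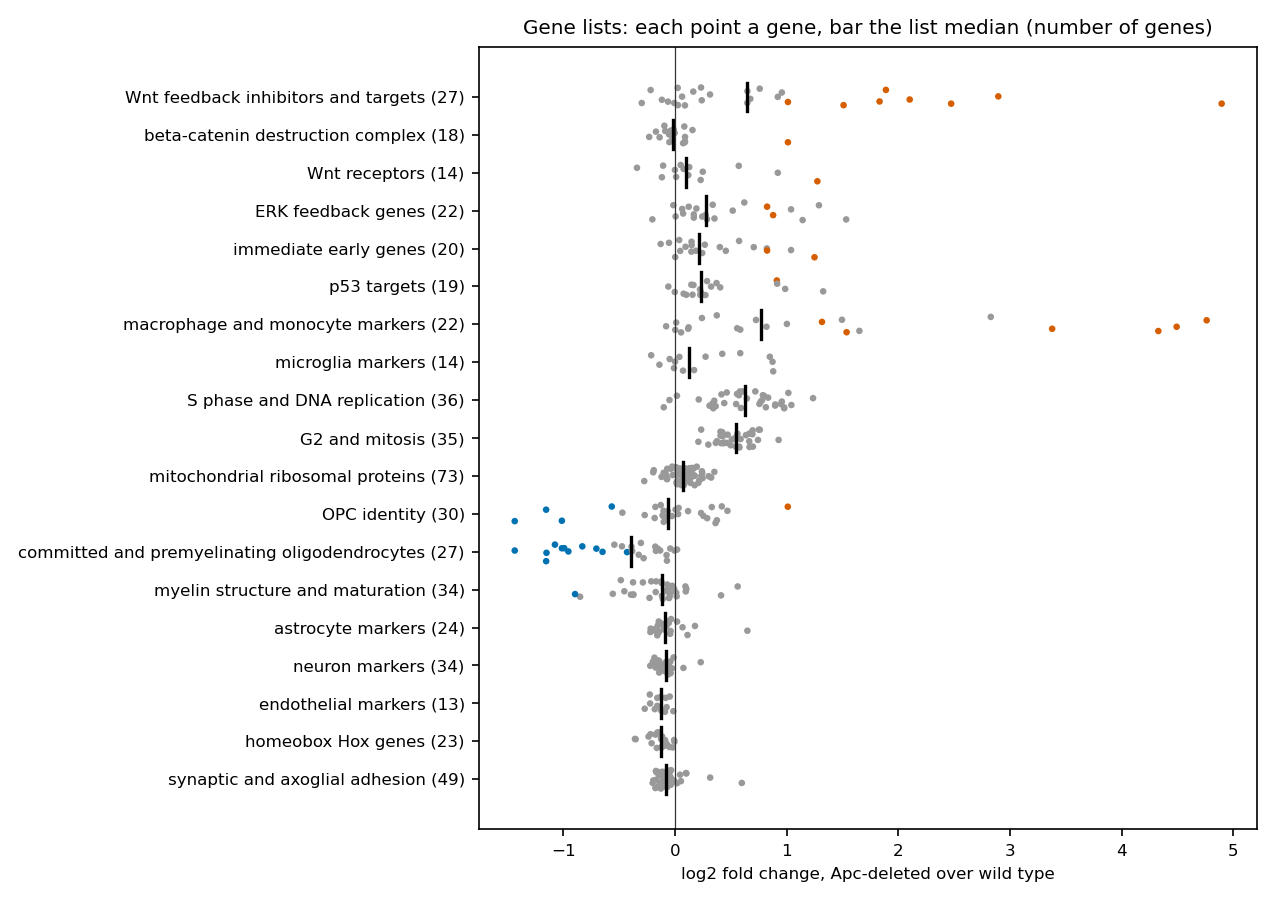
Log2 fold changes (Apc-deleted over wild type) of the genes of 19 lists; each point is a gene, the black bar is the list's median, orange marks genes that rose and blue genes that fell, and vertical scatter within a row has no meaning. Wnt feedback genes and macrophage markers spread to the right, committed oligodendrocyte genes to the left, and neuron, astrocyte and Hox genes form narrow groups just left of 0.

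Single genes of the cell surface and matrix passed the test, and no semaphorin, plexin or neuropilin did. Cdh3, which encodes P-cadherin (chromosome 8, 106510891 to 106557297), went from an implied 10.6 to 136 normalized counts (3.67, SE 0.50, adjusted p = 4.72e-10) in the authors' deposited table. It was the 1 call among 27 measured cadherins and catenins, 24 of which were bounded. The scavenger receptor for the chemokine Cxcl12, Ackr3, rose by 1.91 (SE 0.41, adjusted p = 0.0012), as did its signalling receptor Cxcr4 above, while Cxcl12 itself stood at -0.08 (SE 0.19) in the authors' deposited table. Among 39 collagens, laminins and related matrix genes the microfibril gene Fbn2 rose by 0.92 (SE 0.23) and Fbln1 by 1.22 (SE 0.33), and 27 were bounded in the authors' deposited table. The metalloprotease Adam12 rose by 1.05 (SE 0.28) and the metalloprotease inhibitor Timp3 fell by 0.83 (SE 0.22) in the authors' deposited table. Thsd4, another matrix protein, rose by 0.82 (SE 0.22) and Igsf9b, a synaptic adhesion molecule, fell by 0.42 (SE 0.11) in the authors' deposited table. Of 30 semaphorins, plexins and neuropilins 27 were bounded and 0 passed, with 1 at an unadjusted p under 0.05 by the authors' test.

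Enzymes and secreted factors made up much of the rest of the increases. Hdc, which makes histamine from histidine, went from an implied 54.4 to 212 normalized counts (1.97, SE 0.31, adjusted p = 2.88e-07) in the authors' deposited table. Prss56, a serine protease, went from an implied 203 to 833 (2.04, SE 0.30, adjusted p = 1.14e-08), and the lipid enzymes Pla2g16, a phospholipase, and Pnlip, a lipase best known from the pancreas, rose by 1.48 (SE 0.27) and 1.44 (SE 0.31) in the authors' deposited table. Aldh1a1, which makes retinoic acid, went from an implied 395 to 923 (1.23, SE 0.21, adjusted p = 2.87e-06), and its neighbour Aldh1a7 rose by 1.59 (SE 0.32) in the authors' deposited table. These paralogs are close in sequence and could share reads, so the second value is uncertain. The other 13 measured aldehyde dehydrogenases held 0 calls, and in the list of retinoid metabolism Rdh10, an enzyme upstream of retinoic acid, stood at 0.63 (SE 0.19, adjusted p = 0.141) in the authors' deposited table.

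The authors' deposited table further gave increases for Selenop, a selenium carrier, by 1.16 (SE 0.22), the pentraxin Nptx2 by 1.14 (SE 0.22), the secreted protein Ism1 by 1.94 (SE 0.34) and the vasodilator peptide Adm by 1.03 (SE 0.25). Oprk1, the kappa opioid receptor, rose by 1.45 (SE 0.27, adjusted p = 7.76e-05) in the authors' deposited table. Il1rap, a co-receptor for interleukin-1, rose by 0.80 (SE 0.21), Ppp1r3b, a glycogen-targeting phosphatase subunit, by 1.20 (SE 0.31), the Tudor-domain gene Tdrd7 by 0.75 (SE 0.19) and Proser2 by 0.78 (SE 0.20) in the authors' deposited table. The changes of these genes fall in no common list fixed here.

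Regulators of Rac, a small GTPase that shapes actin and cell processes, were several among the genes that fell outside the lineage lists. Elmo1, which activates Rac together with Dock proteins, fell by 1.04 (SE 0.17, adjusted p = 1.16e-06) and Chn2, a Rac GTPase-activating protein, went from an implied 1596 to 848 normalized counts (-0.91, SE 0.14, adjusted p = 1.57e-07) in the authors' deposited table. Kank1, which links adhesions to microtubules and restrains actin assembly (chromosome 19, 25236975 to 25434496), went from an implied 1153 to 603 (-0.94, SE 0.13, adjusted p = 3.64e-09) in the authors' deposited table. Sh3rf1, a scaffold of Rac and JNK signalling, fell by 0.50 (SE 0.13), the kinase Tnk2, an effector of Cdc42, by 0.64 (SE 0.14), and Sh3bp4, an endocytic adaptor, by 0.97 (SE 0.19) in the authors' deposited table. These genes were grouped after their values were seen. The glutamate transporter Slc1a1 went from an implied 1428 to 901 (-0.66, SE 0.11, adjusted p = 6.91e-06), the lysophospholipid transporter Mfsd2a fell by 0.74 (SE 0.19), Pid1 by 0.75 (SE 0.14) and the metallopeptidase Amz1 by 0.64 (SE 0.17) in the authors' deposited table.

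Markers of neurons and astrocytes and genes of synapses and channels mostly pointed slightly lower, and nearly all of them were bounded. Of all 12084 genes 74.9% were bounded, and 94.3% in the highest of 5 bins by mean level. Of 34 neuron markers 2 pointed higher, 33 were bounded and 0 passed, with 1 at an unadjusted p under 0.05 by the authors' test, and the median was -0.08. Tubb3, a neuronal tubulin and the most abundant of them per kilobase, was at -0.01 (SE 0.17) and Dcx, of migrating neurons, at -0.20 (SE 0.09) in the authors' deposited table. Astrocyte markers held 5 of 24 pointing higher and 23 bounded, and genes of synaptic and axoglial adhesion 7 of 49 pointing higher and 46 bounded, with medians of -0.09 and -0.08. Of 21 voltage-gated sodium and calcium channels 20 were bounded and of 21 ionotropic glutamate receptors 21. All 23 measured Hox genes, which record position along the body axis, pointed lower with a median of -0.13, yet 0 passed and 0 had an unadjusted p under 0.05. All 13 endothelial markers and 5 erythroid genes pointed lower too, at medians of -0.13 and -0.23, with 0 called in either list and 0 and 3 at an unadjusted p under 0.05 by the authors' test. These last lists were less precise, with 8 of 13 and 2 of 5 bounded, and Hba-a1, a haemoglobin gene with a near-identical copy, stood at -0.39 (SE 0.11, adjusted p = 0.0667) in the authors' deposited table. Genes of 1 cell type share their source, so such agreement in direction counts as few observations, and whether the amount of other cells differed between the genotypes was not tested.

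Genes of basic cell functions were mostly bounded, as were 74.9% of all 12084 genes. That share ran from 32.2% in the lowest of 5 bins by mean level to 94.3% in the highest, so these counts also reflect level. Complex I of the respiratory chain had 32 of 35 genes bounded, the proteasome 31 of 35 and cholesterol synthesis, on which myelin depends, 21 of 23, each with 0 calls and 0 genes at an unadjusted p under 0.05 by the authors' test. Imprinted genes were bounded in 24 of 25 cases and chromatin regulators of the lineage in 23 of 27. Of 70 cytoplasmic ribosomal proteins, whose copies in the genome can share reads, 51 pointed higher and 37 were bounded, with a median of 0.11 and 0 calls, and 2 had an unadjusted p under 0.05 by the authors' test. Mitochondrial ribosomal proteins pointed higher in 60 of 73 cases, at a median of 0.07 and with 62 bounded. The large families of solute carriers and of transmembrane genes named Tmem had medians of -0.00 over 204 genes and -0.02 over 162.

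Called genes were looked up by position on GRCm38 with GENCODE M21. 6 pairs of called genes lay within 500 kb of each other, and in 5 pairs both changed in the same direction. Gpr17 on the minus strand lies inside Lims2 on the plus strand (chromosome 18, 31922290 to 31958619), and both fell. Gm15222 lies inside Bmp4 on the other strand (chromosome 14, 46383520 to 46390669), and both fell, while Gm45496 lies inside Nkd1 on the same strand (chromosome 8, 88521354 to 88594884), and both rose. No source used here says whether counting used strand, so in each of these 3 pairs the reads of the 2 genes cannot be told apart with certainty. Aldh1a1 and Aldh1a7 on chromosome 19 were 49487 bases apart and Mfsd2a and Mycl on chromosome 4 34463 bases apart. Within 5 Mb of Apc lay 97 of the genes, of which Gpr17 and Lims2 were called, and within 5 Mb of Olig2, the source of the Cre promoter, 54 with 0 calls. Both genotypes carry the floxed allele, and whether alleles linked to either locus differed between the groups was not tested.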

How the data were processed

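Trizol RNA was sequenced in paired reads on an Illumina HiSeq, per the labels' protocols. The genome build was GRCm38, per the submitters' processing notes. The aligner, counting tool and comparison test were not given in the sources used here. Raw files of some OPC samples were once replaced, according to the series' design text. Per the file headers, the authors deposited for each gene a mean of normalized counts (a signal per gene, without counts per library), a log2 fold change with its SE, a statistic and p-values, raw and adjusted. The deposited statistic, a score with no fixed range, equals the log2 fold change divided by its SE to within 4.6e-07. The p-values deposited by the authors were used as they are, and their adjusted p corresponds to about 19800 tests, while 19333 genes were used here. 16 columns of per-sample values, of other samples, were not used.

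Group means were implied from mean and fold, 95% intervals taken from the SE by the normal approximation, and the SE of each gene set against the 200 genes nearest in mean. A gene was called at an adjusted p under 0.05, and lists were described by counts and medians with no test. The members, the 79 lists and the 38 families (genes sharing a symbol pattern) were chosen with earlier results of these data known. Named genes are Apc, every called gene with a symbol, the most abundant and up to 4 members with the smallest p of each list described, the 10 uncalled genes with the largest fold and the 10 with the largest SE ratio, and bounded members of lists described. Further genes of a list named as examples, among them Mbp, Mog, Sox10 and Csf1r, were chosen after their values were seen. GENCODE M21 matched 99.81% of identifiers, and 8 symbols were duplicated. Promoters are from RefSeq. The calling was tested on simulated estimates with normal errors of the deposited SEs, which cannot judge the choice of reference distribution. The software was pandas 2.3.3 and numpy 2.4.6 on Python 3.11.15, with scipy 1.17.1 for tests and matplotlib 3.10.9 for figures. Alternatives covered the minimum mean, the threshold, the adjustment, the size of fold, the reference distribution and centring. Fits with replicates could not be made from this table. Some results are not reported here.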

Additional observations from a re-analysis of the deposited data

How the results depend on the processing

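No paired analysis was possible because the authors' deposited table holds no value per library, and for the same reason no library could be left out. With the Holm adjustment 25 genes were higher and 14 lower, all 39 among the 90. With at least 2-fold required, 47 were higher and 9 lower. With a t distribution of 4 degrees of freedom 0 were higher and 0 lower, although 135 and 59 held an unadjusted p under 0.05. Even Notum could not pass at those degrees of freedom, so this setting does not judge single calls. Minimum means of 20, 100 or none gave 71, 46 and 76 higher and 30, 29 and 30 lower, and thresholds of 0.01 and 0.1 gave 40 and 71 higher and 20 and 35 lower. Adjustment over the 12084 genes alone gave 63 and 34, and dividing the statistic by its SD over all genes gave 73 and 36, and both included the 90. Centring on the median, and adjustment over the genes of the whole table (an alternative chosen after seeing the data), gave 60 and 30. The median over all genes stayed at 0.00 for each minimum mean. The median of the macrophage list moved most with the minimum mean, by 0.52 with none, to 1.29, and by 0.39 with 20. The number of genes with a wide SE was 210 with 50 neighbours in place of 200. Depth per library is unknown, and precision fell with level, as 32.2% of genes were bounded in the lowest of 5 bins by mean against 94.3% in the highest.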
